A study of Mus musculus with 12 samples.

Results

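The cytosolic ribosomal proteins are the protein subunits of the ribosome that translates nuclear-encoded messenger RNA. Members were all genes whose single symbol in the platform's probe annotation has the form of a large subunit (Rpl) or small subunit (Rps) protein name, with S6 kinases and mitochondrial ribosomal proteins left out. This gave 70 of 6786 genes, 45 of the large and 25 of the small subunit, measured by 168 of 15600 clones. Of the 70 genes, 24 had 1 clone, 19 had 2 and 27 had 3 or more. No filter on low values was applied, so every member that the array names was kept. Rplp0 and Rps27a were not analysed here. The name-based rule also took in 4 paralogs, Rpl7l1, Rpl22l1, Rpl39l and Rps27l, which are encoded by genes of their own and are described separately. Ribosomal protein genes have many near-identical processed copies in the mouse genome, and the arrayed clones may not separate the RNA of a gene from that of such copies.

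RNA came from the renal medulla, the inner kidney where urine is concentrated, of 3 water-restricted mice and of 3 control mice. The RNA was amplified and hybridised in 2 colours to 12 arrays, on each of which 1 water-restricted mouse was set against 1 control mouse, so that all 9 pairs of mice were covered. The water-restricted mouse carried Alexa Fluor 546 on 6 arrays, called 546 arrays below, and Alexa Fluor 647 on the other 6, called 647 arrays, and 3 pairs of mice were measured in both orientations. The labels used here give no strain, sex, age or length of the restriction. The question posed by the design was how water restriction affects gene expression in this tissue.

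The deposited value is a log2 ratio of both channels, and its numerator dye is not named in the sources used here. The sign of the 647 arrays was changed, and values in that form are called turned below. If the ratio has Alexa Fluor 546 on top, a positive turned difference stands for a higher level in water-restricted mice, and if it has Alexa Fluor 647 on top, for a lower one. Signs below are therefore comparable between genes but have no settled direction. A further reading, that the authors had already turned the arrays, exchanges the difference between groups with the difference between dyes, and its values are given where they bear on a result. The ratios carry no absolute level, so the tissue could not be checked against the presence of its markers. In tissue RNA, fewer cells of a type and less RNA per cell cannot be told apart.

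A ribosome is built from ribosomal RNA and one copy of most ribosomal proteins, and cells make the proteins of both subunits in matched amounts. Their mRNAs are among the most abundant in a cell and typically begin with a cytosine followed by a run of pyrimidines, the 5′ terminal oligopyrimidine tract. The kinase mTOR regulates translation of mRNAs with this tract through 4E-binding proteins and LARP1. In the renal medulla, water restriction raises the osmolality of the tissue, and hypertonic stress is known from cultured cells to slow translation.

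The tract is shown first because it is the feature for which these genes are best known as a class. RefSeq promoter windows of assembly GRCm38.p6, running from 250 bases before to 50 after the annotated start, were matched by symbol to 55 of the 70 genes and gave 66 windows. A cytosine followed by at least 4 bases that are each C or T, lying between 20 bases before and 20 after the start, was found on the sense strand in 68.2% of the members' windows and in 46.7% of all 32851 windows. The same search on the other strand found it in 36.4% and 50.7%. In the whole window and on either strand, CCGGAA was found in 53.0% of the members' windows and 14.9% of all windows, and AAGATGG in 18.2% and 6.34%. These are matches of letters and not mapped sites, and the AAGATGG motif holds the ATG that can be a start codon. The sequences below run 5′ to 3′ on the strand of the gene from 60 bases before the start to 20 after it, with such tracts in capitals. They are the windows of Rpl7a, which had the highest positive turned difference, of Rps9, among the 3 genes of smallest p, and of Rpl22l1. The standard subunits Rps27 and Rpl39 are set beside their paralogs Rps27l and Rpl39l.

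Rpl7a (chr2:26910747-26910827, plus strand): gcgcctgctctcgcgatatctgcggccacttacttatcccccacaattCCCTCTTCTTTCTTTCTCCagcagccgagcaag
Rps9 (chr7:3703981-3704061, plus strand): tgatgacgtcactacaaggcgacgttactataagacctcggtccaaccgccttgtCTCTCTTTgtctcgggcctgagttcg
Rpl22l1 (chr3:28805448-28805528, plus strand): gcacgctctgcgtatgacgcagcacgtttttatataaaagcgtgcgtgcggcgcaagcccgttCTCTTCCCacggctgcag
Rps27 (chr3:90213628-90213708, minus strand): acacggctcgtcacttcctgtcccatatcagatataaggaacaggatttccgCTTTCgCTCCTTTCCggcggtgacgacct
Rps27l, first annotated start (chr9:66946026-66946106, plus strand): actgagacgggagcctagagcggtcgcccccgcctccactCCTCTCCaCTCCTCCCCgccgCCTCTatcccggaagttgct
Rps27l, other annotated start (chr9:66946353-66946433, plus strand): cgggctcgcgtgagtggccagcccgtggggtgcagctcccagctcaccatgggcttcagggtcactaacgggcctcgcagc
Rpl39 (chrX:37085202-37085282, minus strand): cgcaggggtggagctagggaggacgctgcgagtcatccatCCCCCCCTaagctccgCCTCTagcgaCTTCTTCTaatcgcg
Rpl39l (chr16:10170168-10170248, plus strand): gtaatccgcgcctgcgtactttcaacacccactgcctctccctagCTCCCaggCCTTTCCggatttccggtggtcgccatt

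The longest tract printed is the 19-base run of Rpl7a, which begins 12 bases before the annotated start, and Rps9 has an 8-base run that begins 5 bases before it. The other annotated start of Rps27l has no tract. The 42 genes with a tract had a median turned group difference of -0.17, with quartiles of -0.24 and -0.076. The 13 without one had a median of -0.068, with overlapping quartiles of -0.26 and -0.0062. The 15 genes with no promoter window had a median of -0.27, below both. These medians are given as a description, and the differences between the sets of genes were not tested.

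Between water-restricted and control mice no single ribosomal protein gene passed the test, but most lay on the same side of 0. The level of each mouse was estimated from all its arrays, and 3 water-restricted mice were compared with 3 control mice by limma on these levels, with Benjamini-Hochberg adjustment over 6786 genes and a threshold of 0.05. The count past the threshold was 0 of 70 members, against 0 of all genes (0%), with a lowest adjusted p of 0.896 among members and 0.183 among all genes. At an unadjusted p under 0.05 on either side there were 3 of 70 members and 337 of 6786 genes. The 3 members were all negative, and 1.75% of all genes were negative at that level. With mice as random effects over the 12 arrays, limma called 112 genes (1.65%) and again 0 members, whose lowest adjusted p was 0.0749. At an unadjusted p under 0.05 that fit had 22 of 70 members and 842 of 6786 genes. On simulated data it made 16 false calls at the adjusted threshold, and the fit on mouse levels made 1.

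The turned difference was below 0 in 61 of 70 members, where 49.3% of all genes were below 0. The members' median was -0.18 on the log2 scale, against 0.0034 over all genes, and members ran from -0.61 in Rpl30 to 0.19 in Rpl7a. The large subunit had a median of -0.19 with 37 of 45 genes negative, and the small subunit a median of -0.15 with 24 of 25 negative. Rps3 was the single positive gene of the small subunit. In 12 members the levels of all 3 water-restricted mice lay below those of all 3 control mice, which was the case in 3.86% of all genes. The opposite order was found in 0 members and in 5.94% of all genes. The standard error of a single member's difference ran from 0.14 to 0.42, and in 36 members the difference was smaller than its own standard error.

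**Figure D1:**
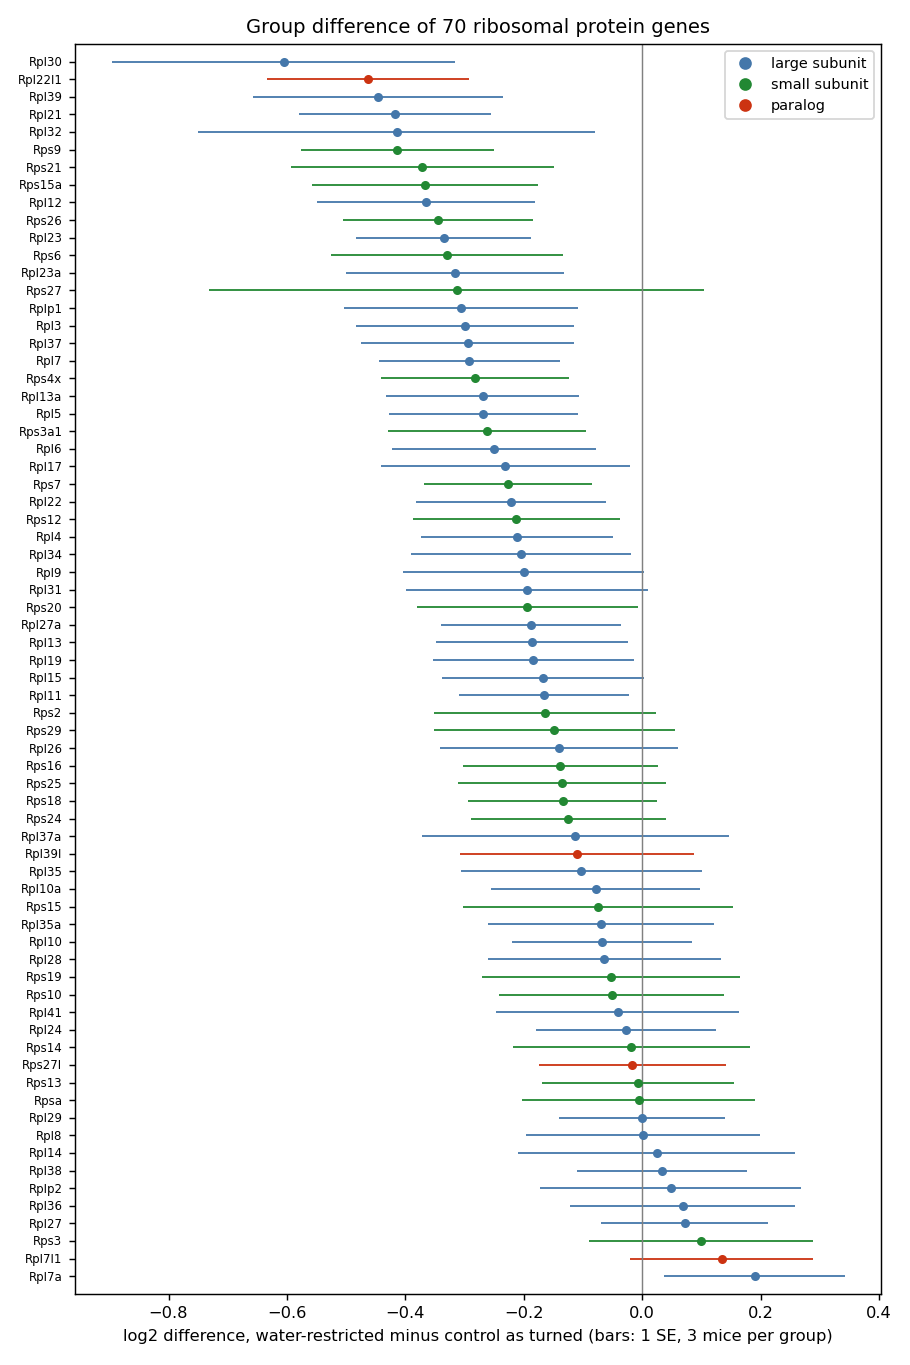
Turned log2 difference of each of the 70 ribosomal protein genes, with bars of 1 SE (3 mice per group), ordered from the lowest (Rpl30, -0.61) to the highest (Rpl7a, 0.19) and coloured by subunit, with the 4 paralogs apart. Points of 61 genes lie below 0, and the bars of 36 genes reach 0.

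The side of the members' median differed between the orientations. The 546 arrays alone gave a members' median difference of 0.042 with 28 members negative, and the 647 arrays alone gave a median of -0.44. Arrays of a single orientation cannot separate the difference between groups from the difference between dyes. The pairs of mice measured in both orientations, taken alone, gave a median of -0.26 with 64 members negative. With all arrays read as already turned by the authors, the median was 0.25 with 8 members negative and 0 called. Among the arrays, the 1 that set water-restricted mouse 2 against control mouse 2 had an SD over spots of 1.21, and the other 11 had 0.515 to 0.764. It is called the high-spread array below. Without it the median was -0.26 with 66 members negative.

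Rpl22l1, Rpl21 and Rps9 had the smallest p of the negative members, followed by Rpl23. Rpl22l1 encodes a paralog of Rpl22, and in mice its expression is known to rise when Rpl22 is lost. Its turned levels were -0.30, -0.25 and -0.14 in water-restricted mice 1 to 3, against 0.42, 0.33 and -0.049 in control mice 1 to 3. All 3 water-restricted mice lay below all 3 control mice, with control mouse 3 closest to them. The difference was -0.46 (SE 0.17, adjusted p = 0.896, limma). Rpl22l1 is measured by 1 clone. Its turned value on the high-spread array was -0.87, and without that array its difference was -0.32. Rpl22 itself had a difference of -0.22 (SE 0.16).

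Rpl21, a large subunit protein, stood at -0.26, 0.028 and -0.40 in the water-restricted mice, against 0.27, 0.20 and 0.15 in the control mice. The groups did not overlap, and water-restricted mouse 2 was the nearest to the control mice. The difference was -0.42 (SE 0.16, adjusted p = 0.915, limma). Rps9, a small subunit protein that binds 18S ribosomal RNA, lay at -0.38, -0.22 and -0.028 in water-restricted mice 1 to 3, against 0.062, 0.35 and 0.20 in the control mice. Its groups did not overlap either, and its difference was -0.41 (SE 0.16, adjusted p = 0.920, limma). Turned values of Rps9 were negative on 11 of 12 arrays.

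Rpl23, which lies at the face of the large subunit toward the small one and can bind the p53 regulator Mdm2, was negative on all 12 arrays, as were Rpl30 and 0.589% of all genes. Its levels were -0.075, -0.11 and -0.31 in the water-restricted mice, against 0.098, 0.26 and 0.15 in the control mice. The difference was -0.34 (SE 0.15, adjusted p = 0.996, limma), with no overlap of the groups. Its sign did not depend on the dye orientation, with a mean turned value of -0.29 ± 0.22 on 546 arrays and -0.39 ± 0.23 on 647 arrays (SD, n = 6 each). The lowest member, Rpl30, had a wider spread. Its levels were 0.031, -0.74 and -0.20 in the water-restricted mice, against -0.089, 0.87 and 0.13 in the control mice, and the groups overlapped. Its turned value on the high-spread array was -2.60, and without that array its difference was -0.41 in place of -0.61.

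On the positive side the smallest p belonged to Rpl7a, Rpl7l1, Rps3 and Rpl27, and 0 of these passed the test. Rpl7a, a large subunit protein known in humans as a fusion partner of an oncogene, lay at -0.0046, 0.11 and 0.17 in water-restricted mice 1 to 3, against -0.11, -0.23 and 0.064 in the control mice. The groups overlapped, and the difference was 0.19 (SE 0.15, adjusted p = 0.996, limma). Rps3, which lines the mRNA entry channel of the small subunit, lay at -0.070, 0.31 and -0.093 in water-restricted mice 1 to 3, against 0.10, -0.33 and 0.078 in the control mice. Its difference of 0.099 (SE 0.19) was -0.052 without the high-spread array. Rpl27 had a difference of 0.071 (SE 0.14), which was 0.038 without that array.

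**Figure D2:**
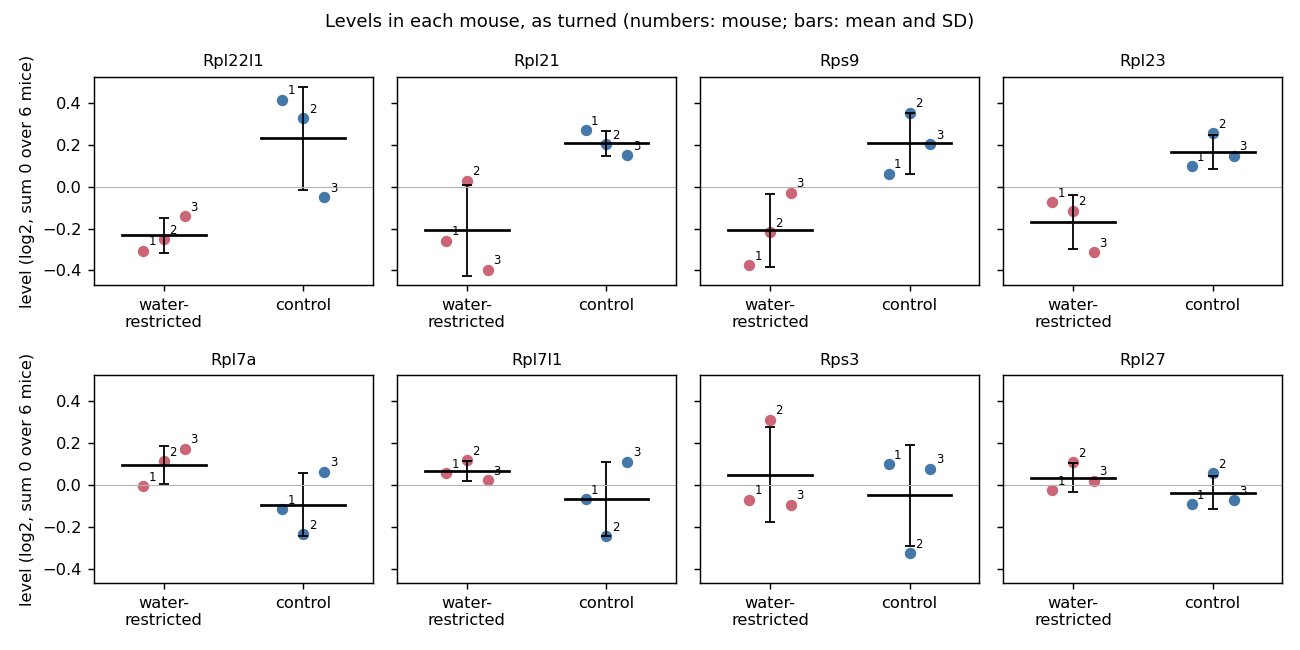
Turned log2 level of each mouse, set to sum to 0 over the 6 mice, for the 4 negative (top) and 4 positive (bottom) ribosomal protein genes of smallest p, with water-restricted mice on the left and control mice on the right, numbers for mice and black bars for mean and SD (n = 3 each). The groups do not overlap in the top row and overlap in each panel of the bottom row.

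The stalk of the large subunit, made of Rplp0, Rplp1 and Rplp2, recruits the elongation factors, and its 2 measured proteins had opposite signs. Rplp1 lay at -0.25, 0.019 and -0.23 in water-restricted mice 1 to 3, against -0.22, 0.40 and 0.27 in the control mice, with a difference of -0.31 (SE 0.20). Rplp2 lay at -0.15, 0.045 and 0.18 in water-restricted mice 1 to 3, against -0.48, 0.14 and 0.27 in the control mice, with a difference of 0.048 (SE 0.22). Both genes had overlapping groups, and the Rplp2 value is smaller than its standard error. Rplp2 was -0.12 without the high-spread array. Rpsa, a small subunit protein also described as a laminin receptor, had a difference of -0.0062 (SE 0.20), which was -0.20 without the high-spread array, where its turned value was 1.53.

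Values of 4 other members with well-known roles are as follows. Rps6, the small subunit protein phosphorylated by S6 kinases, had a difference of -0.33 (SE 0.20). Rpl5, which carries 5S ribosomal RNA into the ribosome and can bind Mdm2 together with Rpl11, had -0.27 (SE 0.16), and Rpl11 had -0.17 (SE 0.14). Rpl11 had -0.31 without the high-spread array. Rpl3, at the peptidyl transferase centre, had -0.30 (SE 0.18). None of them passed the test.

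The 4 paralogs did not share a side. Beside Rpl22l1, Rpl39l had a difference of -0.11 (SE 0.20), Rps27l one of -0.017 (SE 0.16) and Rpl7l1 one of 0.13 (SE 0.15), which was 0.082 without the high-spread array. Rpl39l encodes a copy of the exit tunnel protein Rpl39 best known from the male germ line, and Rps27l is a target of p53. The standard proteins Rpl39, Rps27 and Rpl7 had differences of -0.45 (SE 0.21), -0.31 (SE 0.42) and -0.29 (SE 0.15), and Rps27 had -0.51 without the high-spread array. The difference within each such set of genes was not tested. Rpl39l was 0.065 without the high-spread array, where its turned value was -1.32.

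Different clones of the same gene mostly gave differences on the same side of 0. Of the 27 members with 3 or more clones, 21 had all clones negative, 0 had all clones positive and 6 had clones on both sides. Among the 168 clones of all members 148 were negative, where 8114 of all 15600 clones were negative. The lowest and highest clone of a gene lay a median of 0.12 apart on the log2 scale. The 7 clones of Rpl3 ran from -0.36 to -0.27, and the 5 clones of Rpl5 from -0.29 to -0.24. The 8 clones of Rpl4, a large subunit protein at the exit tunnel, ran from -0.29 to -0.17, and the 8 of Rpl7 from -0.39 to -0.084. Wider ranges were those of Rps24, from -0.39 to 0.14, and of Rps6, from -0.61 to -0.12, with 3 clones each. Clones of a gene share the RNA of the same 6 mice and are not replicates of the comparison. The widest gap, 0.785, was that of Rpl7l1, whose 3 clones gave -0.34, 0.30 and 0.44, so that its mean stands for no single clone.

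**Figure D3:**
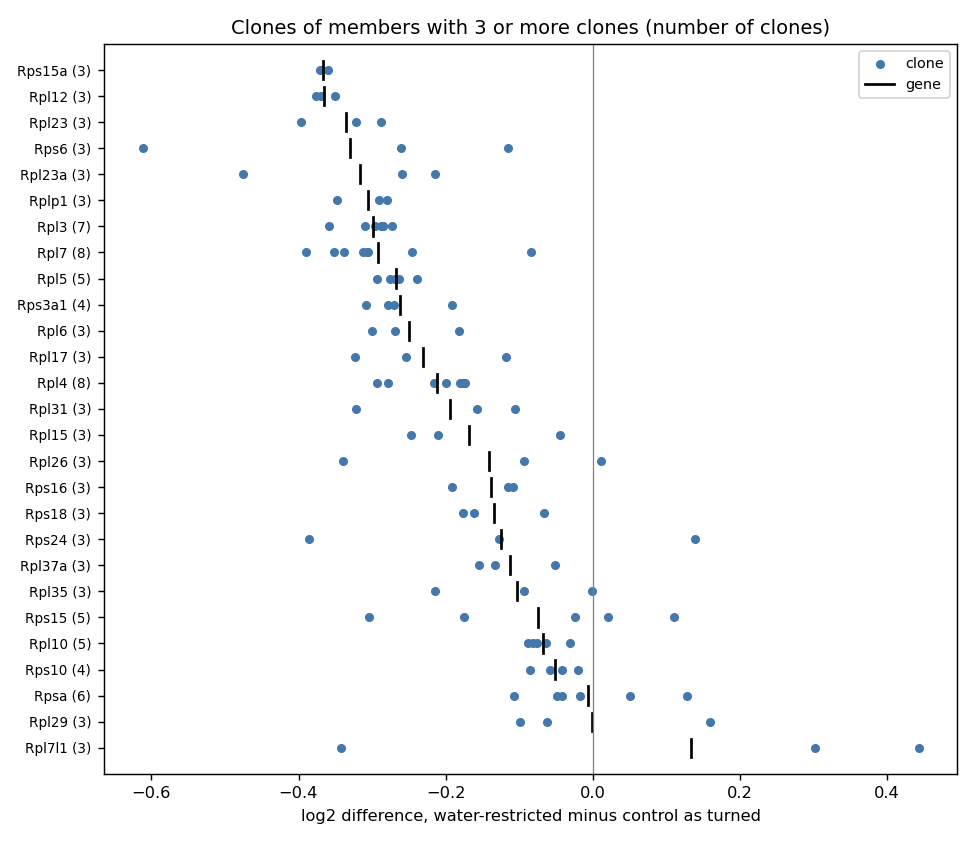
Turned log2 difference of each clone (points) of the 27 ribosomal protein genes with 3 or more clones, and of the gene (vertical bars), with the number of clones in parentheses. All clones of 21 genes lie below 0, and those of Rpl7l1 lie farthest apart (0.785).

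Median turned levels of the 70 members, mouse by mouse, were -0.25, 0.020 and -0.014 in water-restricted mice 1 to 3, against -0.092, 0.17 and 0.17 in control mice 1 to 3. The groups overlapped, since control mouse 1 lay below water-restricted mice 2 and 3. Leaving out each mouse in turn kept the members' median negative, between -0.25 and -0.081. The values nearest to 0 were -0.081 when water-restricted mouse 1 was left out and -0.10 when control mouse 2 was. By pair of mice, the members' median turned value for water-restricted mice 1 to 3 was -0.010, 0.031 and 0.013 against control mouse 1, all near 0. It was -0.61, 0.32 and -0.42 against control mouse 2, and -0.34, -0.52 and 0.090 against control mouse 3. These medians still hold the dye term where a pair had 1 array.

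Differences between mice of the same group were tested against the error between arrays with limma's F-test on 12 arrays. It called 14 of 6786 genes (0.206%) and 0 of 70 members, with a lowest adjusted p of 0.262 among members and an unadjusted p under 0.05 in 6 members and 870 genes. The 4 members of smallest p were Rpl32, Rps27, Rpl31 and Rpl26. Rpl32 lay at -0.32, -0.51 and 0.21 in water-restricted mice 1 to 3, against -0.27, 0.97 and -0.079 in the control mice, with control mouse 2 apart from the rest. Rps27, a zinc finger protein of the small subunit, lay at -1.14, 0.33 and 0.34 in water-restricted mice 1 to 3, against -0.29, 0.69 and 0.063 in the control mice, with water-restricted mouse 1 apart. It is measured by 1 clone. Rpl31 had its lowest level, -0.40, in water-restricted mouse 1 and its highest, 0.39, in control mouse 2. The same 2 mice were the lowest and the highest for Rpl26, at -0.39 and 0.33.

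The turned ratios of ribosomal protein genes differed with the dye orientation, and 18 of the 70 genes passed the test of that difference, which sets it against the error between arrays and not against the spread between mice. The median turned value of the 70 members was between -0.23 and 0.32 on the 546 arrays and between -0.61 and 0.013 on the 647 arrays. Medians of all genes stayed between -0.026 and 0.17 on the 546 arrays and between -0.065 and -0.015 on the 647 arrays. In 12 members every 647 array lay below every 546 array, as in 3.4% of all genes. On all 647 arrays 25 members were negative, as were 9.39% of all genes. On all 546 arrays 3 members were negative, as were 4.38% of all genes.

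**Figure D4:**
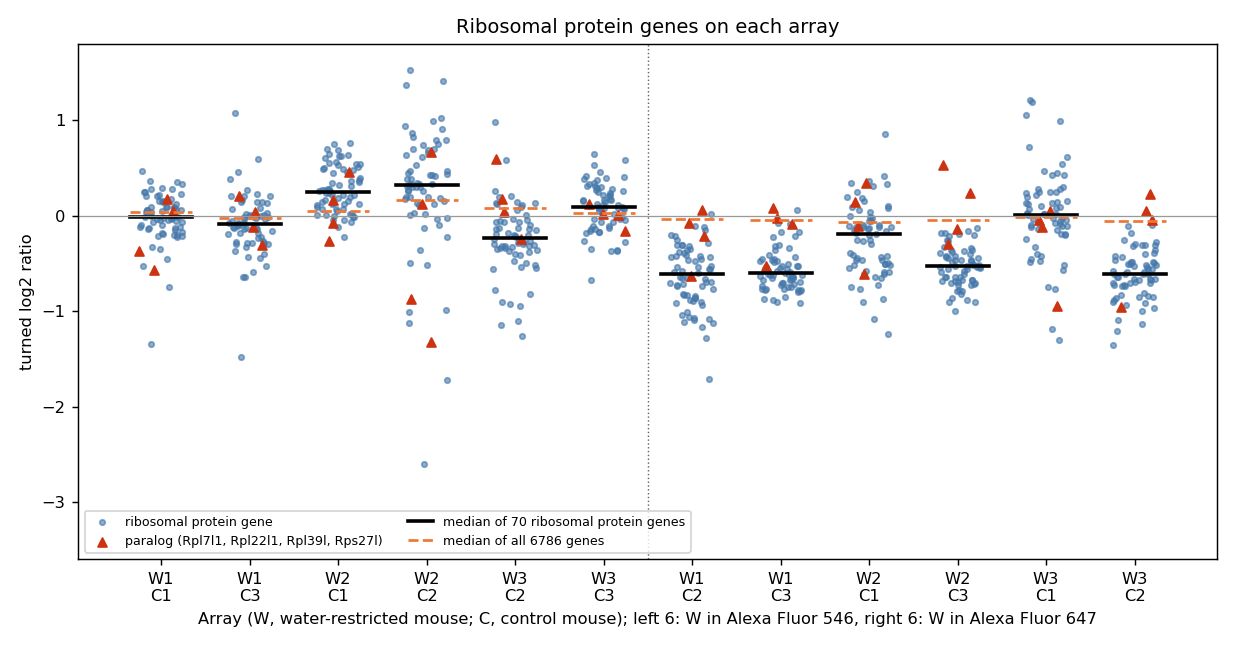
Turned log2 ratio of the 70 ribosomal protein genes on each array (points, with the 4 paralogs as triangles), their median (solid bar) and the median of all 6786 genes (dashed bar), with the 546 arrays on the left and the 647 arrays on the right. Medians of the members lie from -0.23 to 0.32 on the left and from -0.61 to 0.013 on the right.

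The dye term, which is added on 546 arrays and subtracted on 647 arrays, was tested with limma on 12 arrays with Benjamini-Hochberg adjustment. It passed the threshold in 18 of 70 members, all positive, where 5.11% of all genes passed on the positive side. The members' median dye term was 0.23 with 63 of 70 positive, against 0.048 over all genes, and the values past the threshold ran from 0.29 to 0.54. Of the genes called, 11 belonged to the large and 7 to the small subunit. With clones tested singly, the dye term passed in 22 of 168 member clones and in 527 of all 15600 clones. It was positive in 155 of the member clones, and ran from 0.023 to 0.78 over the 8 clones of Rpl7. Leaving out any mouse with all its arrays brought the count to 0 members and to at most 7 genes, and the 3 swapped pairs alone gave 0 members. These fits rest on fewer arrays. Without a mouse, the members' median dye term was between 0.17 and 0.31, with 58 to 66 members positive. In the swapped pairs the median was 0.24 with 66 positive. Read as already turned by the authors, these dye terms would be differences between the groups.

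Rpl21 had the smallest p. Its turned values had a lowest of -0.057, a median of 0.11 and a highest of 0.35 on 546 arrays, and a lowest of -1.30, a median of -0.92 and a highest of -0.57 on 647 arrays. The orientations did not overlap, and the dye term was 0.52 (SE 0.069, adjusted p = 0.00959, limma). Rps7, a small subunit protein needed in human cells for processing of ribosomal RNA, had -0.013, 0.12 and 0.43 as lowest, median and highest on 546 arrays and -0.77, -0.59 and -0.52 on 647 arrays. Its arrays did not overlap either, and the dye term was 0.39 (SE 0.070, adjusted p = 0.0202, limma).

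Rpl24, a large subunit protein that joins late in yeast ribosome assembly, had 0.14, 0.30 and 0.79 on 546 arrays and -0.48, -0.46 and -0.31 on 647 arrays, with a dye term of 0.41 (SE 0.075, adjusted p = 0.0204, limma). Rpl7a had 0.41, 0.56 and 0.99 on 546 arrays and -0.61, -0.36 and 0.14 on 647 arrays, with a dye term of 0.49 (SE 0.089, adjusted p = 0.0205, limma). In both genes the orientations did not overlap, and the turned sign was the same on all 546 arrays. The highest dye term was that of Rpsa, 0.54 (SE 0.13, adjusted p = 0.0395, limma), and Rplp1 had 0.46 (SE 0.092, adjusted p = 0.0251, limma). Rplp2 had a dye term of -0.016 (SE 0.12) that did not pass. The paralogs had dye terms of 0.20 in Rpl22l1, 0.14 in Rpl7l1, -0.075 in Rps27l and -0.13 in Rpl39l, and 0 of the 4 passed. The lowest dye term among members was -0.32, in Rpl30, which did not pass.

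**Figure D5:**
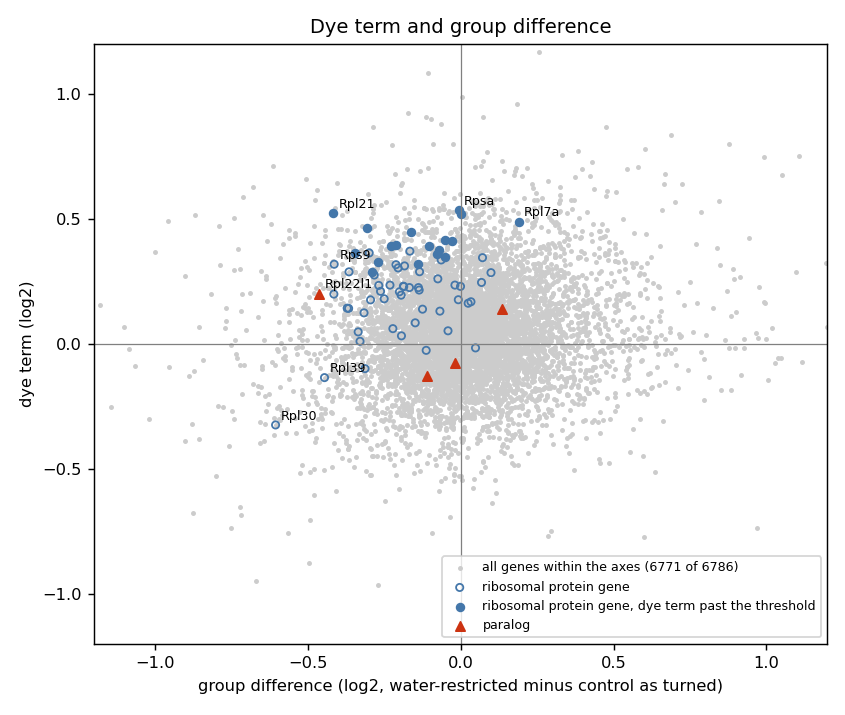
Dye term (vertical axis) against turned group difference (horizontal axis), both log2, for 6771 of 6786 genes that lie within the axes (grey) and for the 70 ribosomal protein genes, filled where the dye term passed the threshold and triangles for the 4 paralogs. The members lie mostly above 0 on the vertical axis (63 of 70) and left of 0 on the horizontal axis (61 of 70).

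In the 3 pairs of mice measured in both orientations, the deposited ratios can be read without turning. The members' median deposited ratio was -0.084 on the 546 array and 0.60 on the 647 array for water-restricted mouse 1 with control mouse 3. It was 0.25 and 0.19 for water-restricted mouse 2 with control mouse 1, and -0.23 and 0.61 for water-restricted mouse 3 with control mouse 2. Sign reversal between the arrays of a pair was thus seen in 2 of the 3 pairs. Over all clones the arrays of these pairs correlated at -0.14, 0.13 and -0.13, which is a description of arrays that share both RNA samples.

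Other lists of the translation apparatus are given by their counts, with no test between lists, and 0 of their genes passed the group test. Mitochondrial ribosomal proteins, which build the separate ribosome of mitochondria, had a median turned difference of 0.095 over 44 genes, 31 of them positive and 13 negative. Without the high-spread array the median was 0.043 with 18 negative. Their dye term passed in 9 of the 44 genes (20.5%), all positive. It passed in 25.7% of the cytosolic members and, on the positive side, in 5.11% of all genes. Of 18 measured genes among 21 listed whose mRNAs also begin with a pyrimidine tract, such as elongation factors, 11 were negative and the median was -0.022. Without the high-spread array 14 of the 18 were negative and the median was -0.13. The lowest p among them were those of Npm1, a nucleolar chaperone, with -0.36 (SE 0.17), and of Eef1a1, the elongation factor that delivers aminoacyl-tRNA, with -0.29 (SE 0.15).

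Ribosome biogenesis factors, 67 measured of 80 listed, had a median of 0.044 with 27 negative, and a median of 0.024 with 26 negative without the high-spread array. The 2 of smallest p were negative, while 40 of the 67 were positive. Polr1c, a subunit shared by RNA polymerases I and III, had a difference of -0.48 (SE 0.18), and Noc2l, a nucleolar protein, one of -0.37 (SE 0.16). The dye term of Polr1c, 0.58, passed the threshold of the dye test. Genes of mTOR and S6 kinase signalling, 14 measured of 28, had a median of 0.087 with 10 positive. Mtor had a difference of 0.53 (SE 0.22) and Eif4e, the cap-binding protein, one of 0.42 (SE 0.19). The adjusted p of these 6 genes ran from 0.907 to 0.996 (limma).

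Marker genes of kidney cell types are set beside these values. Proximal tubule genes, which belong to the cortex and outer stripe, were measured for 6 of 31 listed, 5 of them positive, with a mean level between 0.42 and 0.57 in the water-restricted mice and between -0.97 and 0.19 in the control mice. Principal cell genes of the collecting duct were measured for 7 of 18, all 7 negative, with a mean level between -0.30 and -0.19 in the water-restricted mice and between 0.066 and 0.49 in the control mice. For both lists the groups did not overlap. The limma test of mouse levels called 0 genes of either list, and random mouse effects called 4 proximal tubule and 3 principal cell genes. Control mouse 1, which had the lowest ribosomal protein level of the control mice, had the highest proximal tubule level of them, 0.19 against -0.97 and -0.65. The water-restricted mice did not show this order. Mouse 1 had their lowest ribosomal protein level, and its proximal tubule level of 0.44 lay between 0.42 in mouse 2 and 0.57 in mouse 3. Erythroid genes, 3 measured of 9, had a median of -0.74, with a mean level between -0.66 and -0.13 in the water-restricted mice and between 0.25 and 0.42 in the control mice.

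Medians of the other lists ran from -0.26 to 0.18. Interstitial genes (9 of 14 measured) had a median of -0.26, intercalated cell genes (3 of 13) one of -0.051, leukocyte genes (4 of 22) one of 0.098 and endothelial genes (3 of 15) one of 0.18. Proliferation genes, 20 of 24, had a median of -0.038, and 0 of 10 thick limb genes were among the named genes. Without the high-spread array the medians of the interstitial and intercalated lists were -0.17 and -0.032. The part of any of these cell types in the ribosomal protein values was not tested.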

How the data were processed

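Each array compared amplified renal medulla RNA of 1 water-restricted and 1 control mouse. The authors deposited 1 log2 ratio per spot and array; scanner signals were not used here. The sources used here name no background correction, normalization, centring or numerator dye, so signal over background could not be examined, and the number of arrays limits the precision. The log base was read from the values, which have array medians from -0.038 to 0.060 and reach -15.2.

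Adjacent spots of a clone (31200 spots, correlated at 0.362 to 0.684 within arrays) were averaged to 15600 clones. The platform annotation gave 9191 clones 1 gene, 254 several genes, of which 14 included a ribosomal protein and were not used, and 6155 none. Symbols of 9085 clones were looked up by Entrez identifier in a RefSeq table of GRCm38.p6, which renamed 0 members. Clones of a gene were averaged.

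The sign was changed on the 6 arrays whose water-restricted mouse carried Alexa Fluor 647. Of all clones, 11.5% had an unadjusted p under 0.05 between mice of the same group with the sign changed, and 4.25% without. Weighted least squares with a dye term gave each mouse a level, with arrays of swapped pairs at weight 0.5. Levels were compared with limma 3.58.1 in R 4.3.3 (lmFit, eBayes), and the dye term and the differences between mice were tested with limma on 12 equally weighted arrays, where residual error is technical. P-values were adjusted by Benjamini-Hochberg over all genes with a threshold of 0.05. Tables were made with Python 3.11.15 and pandas 2.3.3.

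The fits were tested on simulated data with known changes. The fit on mouse levels recovered 1 of 50 planted group differences of 0.5 on the log2 scale and 31 of 50 of 1. With random mouse effects 24 and 47 of 50 were recovered. The dye term test recovered 76 of 100 planted terms of 0.5. A group difference of the size seen in most members would thus seldom pass the test on mouse levels. Same-numbered mice of both groups had deviations correlated at -0.015, -0.54 and -0.11. Such mice share an array, whose error enters their levels with opposite signs, so these values cannot decide whether the numbers pair mice.

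Members, lists and tests were chosen with earlier results of these data known. Named members are the 4 negative and 4 positive ones of smallest p between groups, the 4 of smallest p for the dye term and the 4 between mice, the stalk proteins and Rps27a (of these Rplp0 and Rps27a were not analysed here), Rpsa, paralogs and members with 3 or more clones, and up to 2 genes of smallest p of each pathway list. Rpl30, Rpl22, Rpl39, Rpl11 and the other members past the threshold of the dye term were named after their values were seen. Alternatives were the reading of the sign, arrays of 1 orientation, swapped pairs alone, leaving out each mouse or 1 array, centring, scaling, no dye term, equal weights, random mouse effects, the mouse number as a block, the median over clones, single clones and a threshold of 0.1.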

Additional observations from a re-analysis of the deposited data

Results flagged for a closer look

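The dye term passed the threshold of adjusted p under 0.05 (limma, 12 arrays) in 18 ribosomal protein genes, so that their turned ratios differed between the 2 dye orientations. The highest dye terms were those of Rpsa (0.54), Rpl21 (0.52), Rpl8 (0.52), Rpl7a (0.49), Rplp1 (0.46) and Rps2 (0.45). Rps19 and Rpl24 had 0.41 each, Rps12 and Rps7 and Rpl35 had 0.39 each, Rpl35a had 0.38, Rps26 had 0.37 and Rpl10a had 0.36. Rps10 had 0.35, Rpl13a had 0.33, Rpl26 had 0.32 and Rpl7 had 0.29. All are positive. Leaving out any mouse with its arrays left 0 of them past the threshold, with a median dye term of the 70 members between 0.17 and 0.31. Without the high-spread array Rpl35a (0.33, adjusted p = 0.0531, limma) and Rps2 (0.36, adjusted p = 0.0509, limma) did not pass, and 16 members did.

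Single arrays stood apart from the other 5 of their orientation in 4 of 40 sets of 6 arrays, where chance gives about 1 in 20. Rps3 was at 1.41 and Rpl39l at -1.32 on the high-spread array, which set water-restricted mouse 2 against control mouse 2. Rps3 was also at -0.46 on the 647 array that paired water-restricted mouse 2 with control mouse 1, below the other 647 arrays. Rpl24 was at -0.31 on the 647 array that paired water-restricted mouse 3 with control mouse 2, above the other 647 arrays.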

How the results depend on the processing

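Across the alternatives 0 ribosomal protein genes were called between groups, and 200 of 234 values of 13 named members kept their side of 0. With the mouse number as a replicate block, 0 genes were called, 61 members were below 0 and their median was -0.18, and 0 members and 260 genes had an unadjusted p under 0.05, against 3 and 337 without the block. The dye term and the differences between mice were not fitted with the block. Read as already turned, the members' median difference was 0.25 with 8 below 0, the median dye term was -0.20 with 3 called, and 0 genes were called between mice; differences were 0.15 for Rpl22l1, 0.53 for Rpl21, 0.31 for Rps9, 0.018 for Rpl23, 0.46 for Rplp1, -0.023 for Rplp2 and 0.58 for Rpsa. On 546 arrays alone, 28 members were below 0 with a median of 0.042, and Rpl21, Rplp1, Rplp2 and Rpsa had 0.13, 0.12, -0.017 and 0.48. On 647 arrays alone, 1 gene was called between groups, and Rpl7a, Rps3, Rpl27, Rpl39l and Rps27l had -0.32, -0.23, -0.27, 0.057 and 0.056. On the swapped pairs alone, 1 gene was called between groups and 1 for the dye term, with 0 members, and Rps3, Rpl39l and Rplp2 had -0.080, 0.053 and -0.15. Without the high-spread array they had -0.052, 0.065 and -0.12, and 50 genes were called between mice. With random mouse effects 112 genes were called between groups, and there and with equal weights Rplp2 had -0.00079. At a threshold of 0.1 the dye term was called in 972 genes and 31 members, and 27 genes were called between mice. Between mice, 6 genes were called with no dye term and 28 clones when clones were tested singly. Leaving out each mouse in turn, which also leaves out its arrays, gave 0 to 7 genes and 0 members for the dye term, 0 to 5 genes between mice, and differences from -0.039 to 0.17 for Rps3, -0.23 to 0.090 for Rpl39l, -0.11 to 0.067 for Rps27l, -0.18 to 0.19 for Rplp2 and -0.18 to 0.16 for Rpsa. Swapped arrays at weight 0.5 in the fit on 12 arrays, chosen after seeing the data, gave 769 genes for the dye term and 24 between mice. The planned equal weights were already those of that fit. The causes of these shifts were not tested. With 3 mice per group, the standard error of a single member's difference ran from 0.14 to 0.42. Signal over background is unknown.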
